A study of Homo sapiens with 4 samples.

Results

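The 40 genes described here carry glucose through glycolysis to lactate or sense and answer low oxygen: glucose transporters, the enzymes from hexokinase to pyruvate kinase, lactate dehydrogenase and the lactate exporters, the hypoxia-inducible factors (HIF) with their regulators, and HIF target genes outside glycolysis. They were taken by gene symbol from a fixed list, and all 40 were found, in 41 of the 25133 rows of the expression tables that carry a symbol (ALDOA has 2 rows). The samples were MDA-MB-231 cells, an established human triple-negative breast cancer line, infected with lentivirus that carried either a scrambled short hairpin RNA (shSCR, 2 libraries, labelled wild type) or one against JARID2 (shJARID2, 2 libraries), a DNA-binding cofactor of Polycomb repressive complex 2. The labels give no time after infection, no hairpin sequence and no oxygen level, nor do they state that the paired libraries come from independent cultures. The p-values therefore measure only the spread between these libraries, which may be technical.

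Glycolysis splits glucose into pyruvate. Its preparatory steps spend ATP to phosphorylate the sugar and cut it into triose phosphates, and its pay-off steps return ATP and NADH. Lactate dehydrogenase reduces pyruvate to lactate, which leaves the cell through monocarboxylate transporters, of which MCT1 and MCT4 need the chaperone basigin. When oxygen is scarce, prolyl hydroxylases no longer mark the HIF alpha subunits for destruction by the VHL ubiquitin ligase, and HIF then switches on many glycolytic genes. Breast cancer cells such as these are known for making lactate even in the presence of oxygen.

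Levels are FPKM as deposited, that is fragments scaled by exon length and by sequencing depth. Different genes can be compared only roughly, because the counting of reads shared between loci is not given in the sources used here. Sums and shares over several genes carry the same limit, and they were taken from FPKM without the GC correction described below. For each gene the values of shSCR libraries 1 and 2 come first, then those of shJARID2 libraries 1 and 2; means are given ± SD with n = 2. Each change is a log2 fold change, shJARID2 relative to shSCR, computed on log2(FPKM + 1), where low genes show too small a change. It comes from limma fitted to all 12455 genes with a mean of at least 1 FPKM. A gene is called higher or lower where the Benjamini-Hochberg adjusted p over all of them is below 0.05. A second value is given beside many changes, computed after the trend of each library's log2 values on the GC content of the transcripts was subtracted (the GC-corrected change). With 2 libraries a group, no exact permutation test of 1 gene could reach 0.05, and the calls rest on the spread that limma shares across genes.

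JARID2 itself (Entrez 3720) stood at 10.8 and 10.8 FPKM in shSCR and at 3.88 and 3.91 in shJARID2, a log2 fold change of -1.27 (SE 0.059, adjusted p = 0.0014) and -1.15 after GC correction. About 12800000 to 16200000 reads per library could be recovered from the steps of the FPKM values, and the 2 libraries of a group differed by more than counting noise (chi-square per degree of freedom 3.21 in shSCR and 3.70 in shJARID2). Over all tested genes 59.7% were called, 28.0% higher and 31.6% lower, and 43.9% after GC correction, 22.6% higher and 21.3% lower. All 7 genes expected in MDA-MB-231 were detected, although vimentin was low (2.10 to 4.2 FPKM; 24.4% of its exon bases overlap other genes). Of the 5 genes expected to be absent or low, 4 stayed below 1 FPKM in all 4 libraries, while ERBB2 stood at 15.5, 15.7, 6.58 and 7.57 FPKM. Markers of fibroblasts (6 of 6), leukocytes (4 of 4) and endothelium (3 of 3) were below 1 FPKM in every library, with summed levels of 1.10 and 1.25 in shSCR against 0.581 and 0.537 in shJARID2 for fibroblasts, 0.494 and 0.285 against 0.480 and 0.182 for leukocytes, and 0.605 and 0.701 against 0.275 and 0.293 for endothelium.

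Most of the glycolytic pathway was lower in the shJARID2 libraries, while both lactate dehydrogenase genes were higher and the main lactate exporter was much lower. Of the 40 genes, 35 passed the filter on low values. Of these 22 were called lower (62.9%, against 31.6% of all tested genes), 6 were called higher (17.1%, against 28.0%) and 7 had no call. The median log2 fold change of the 35 was -0.57, beside -0.02 for all tested genes. After GC correction 17 were called lower (48.6%, against 21.3%) and 4 higher (11.4%, against 22.6%), with a median of -0.17 beside 0.00078 for all genes. A fall of 2-fold or more was called for 9 of the 35 as measured (25.7%, against 6.20%) and for 3 after correction (8.57%, against 1.88%). A rise of that size was called for LDHB alone as measured (2.83% of all tested genes) and for none of the 35 after correction by limma (1.80% of all genes), where 4 were called higher at any size. The 2 groups of values overlapped for 1 of the 35, PGK1; they lay apart for the rest (82.9% of all tested genes), lower in 25 (43.1%) and higher in 9 (39.8%). Fewer genes were called higher when either shSCR replicate was left out, with and without the GC correction. This held among the 35 and over all tested genes, and the closing section gives the counts. In bulk RNA, fewer cells of a kind and less RNA per cell cannot be told apart.

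**Figure D1:**
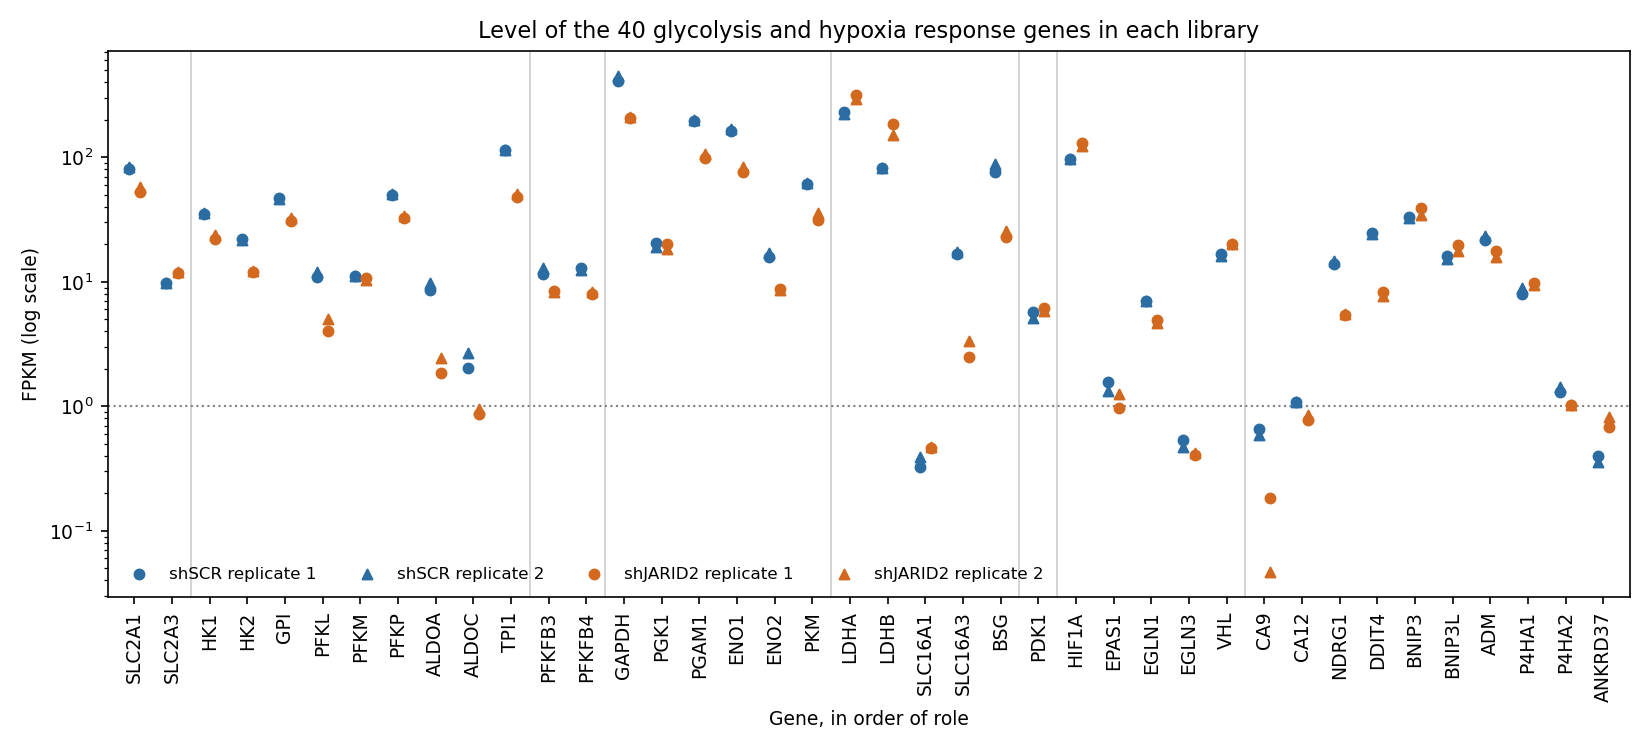
Level of each of the 40 genes in each library, in FPKM on a log axis, ordered by role; blue marks shSCR, orange shJARID2, and shape the replicate number. The glycolytic enzymes from HK1 to PKM lie lower in shJARID2 except PFKM and PGK1, whose points lie close together, whereas LDHA and LDHB lie higher and SLC16A3 falls from 17.0 to 2.92 FPKM.

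The size of the change followed the GC content of the transcripts. Transcripts of the 22 genes called lower had 41.4% to 65.6% GC (median 56.8%), those of the 6 called higher 39.2% to 47.3% (median 45.5%). Across the 35 tested genes Spearman's rho between GC content and log2 fold change was -0.72 (Pearson's r -0.78), and across the 12096 tested genes with a known GC content it was -0.67 (r -0.64). These are correlations across genes that share the same 4 libraries, given as descriptions. The median GC content was 55.5% for the 35 and 48.2% for all. After the correction rho was -0.30 (r -0.40) in the 35 and -0.01 in all genes. The source of the GC trend was not tested, and both values are given for each of the 35. In both forms, 16 genes were called lower and 3 higher, and no gene was called in opposite directions. The share of all genes called in both forms is not given here. It can be at most the 21.3% lower and 22.6% higher that were called after correction.

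**Figure D2:**
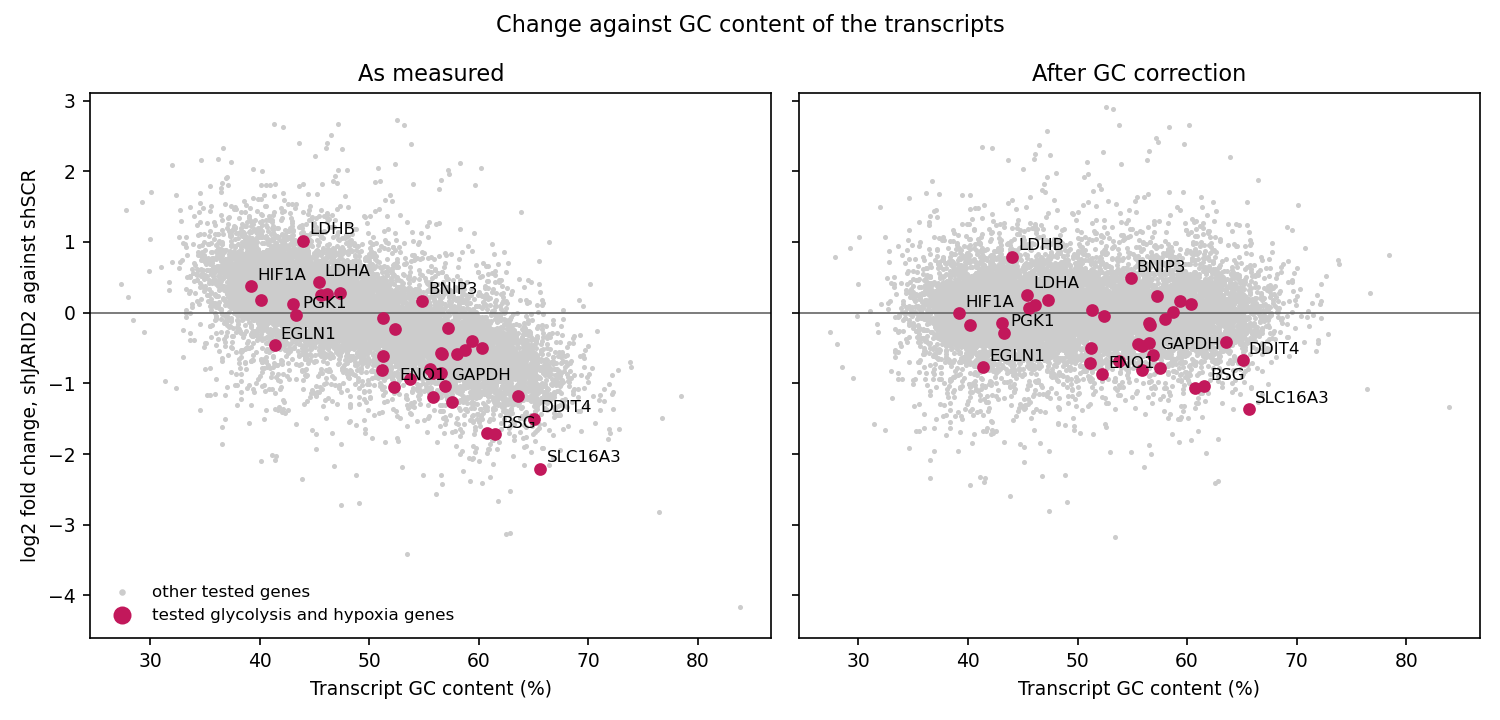
Log2 fold change of shJARID2 against shSCR over the GC content of each gene's transcripts (%), as measured on the left and after GC correction on the right; red points are the tested glycolysis and hypoxia genes, grey points the other tested genes. The slope seen on the left (rho -0.72 among the red points) is weaker on the right (rho -0.30), where SLC16A3, BSG, ENO1 and EGLN1 still lie below 0 and LDHB above it.

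The promoters of many of these genes hold the short core that HIF binds, and the sequences richest in it are shown here because HIF is known to act on this pathway through such cores. In windows of 300 bases (250 before the RefSeq start to 50 after it, GRCh38.p14), ACGTG and GCGTG were searched on both strands. The palindrome CACGTG counts once on each strand. A window was found for 35 of the 40 genes; SLC2A3, SLC16A1, VHL, NDRG1 and BNIP3L had no entry. At least 1 core occurred in 25 of the 35 (71.4%), against 48.4% of all 35116 promoters and 61.2% of the promoters of tested genes. The windows of the 35 were also richer in GC (median 69.7%) than all promoters (58.7%) or those of tested genes (65%), and the core holds a CpG; the part of GC content in the shares was not tested. The 35 include EGLN3, CA9, CA12 and ANKRD37, whose levels were too low to test. Among genes called lower 15 of 21 held a core, among those called higher 3 of 3, and among those with no call 4 of 7. The 5 windows with 4 or more cores follow, 5′ to 3′ on the gene's strand, with the cores in capitals on whichever strand they occur (CACGT and CACGC are the reverse complements).
LDHA (chr11:18394313-18394612, plus strand): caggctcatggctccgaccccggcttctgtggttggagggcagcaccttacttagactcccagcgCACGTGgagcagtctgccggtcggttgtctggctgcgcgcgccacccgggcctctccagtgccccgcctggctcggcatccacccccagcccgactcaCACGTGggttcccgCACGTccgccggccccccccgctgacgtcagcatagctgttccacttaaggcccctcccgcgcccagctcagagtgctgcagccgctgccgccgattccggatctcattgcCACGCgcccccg
BNIP3 (chr10:131981874-131982173, minus strand): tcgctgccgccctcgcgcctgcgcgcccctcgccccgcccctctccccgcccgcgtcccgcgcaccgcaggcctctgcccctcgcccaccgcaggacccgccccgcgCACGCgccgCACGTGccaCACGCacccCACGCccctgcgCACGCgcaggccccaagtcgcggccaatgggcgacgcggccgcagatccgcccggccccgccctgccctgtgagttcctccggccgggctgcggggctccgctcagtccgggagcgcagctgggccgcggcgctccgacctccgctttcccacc
PGK1 (chrX:78103998-78104297, plus strand): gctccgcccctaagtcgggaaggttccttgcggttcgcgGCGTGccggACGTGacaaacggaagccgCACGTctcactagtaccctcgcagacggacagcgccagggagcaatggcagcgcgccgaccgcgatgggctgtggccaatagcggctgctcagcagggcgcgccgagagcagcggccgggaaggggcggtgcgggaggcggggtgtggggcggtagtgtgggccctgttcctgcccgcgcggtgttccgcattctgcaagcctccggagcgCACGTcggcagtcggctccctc
ALDOC (chr17:28576846-28577145, minus strand): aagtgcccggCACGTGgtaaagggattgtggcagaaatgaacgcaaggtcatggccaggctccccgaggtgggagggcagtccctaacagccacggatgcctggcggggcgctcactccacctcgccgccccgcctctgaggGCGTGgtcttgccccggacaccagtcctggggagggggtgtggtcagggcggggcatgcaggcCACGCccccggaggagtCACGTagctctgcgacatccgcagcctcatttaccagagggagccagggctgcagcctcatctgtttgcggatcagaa
DDIT4 (chr10:72273674-72273973, plus strand): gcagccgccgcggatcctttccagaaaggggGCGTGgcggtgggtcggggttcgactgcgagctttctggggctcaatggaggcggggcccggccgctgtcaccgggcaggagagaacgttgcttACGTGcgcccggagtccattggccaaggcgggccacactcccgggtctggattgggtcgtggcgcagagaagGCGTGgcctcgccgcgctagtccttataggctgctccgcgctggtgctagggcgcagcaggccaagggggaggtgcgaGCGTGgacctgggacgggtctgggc
LDHA and BNIP3 had 6 cores each, ALDOC 5, and PGK1 and DDIT4 4 each. These 5 genes did not share a direction: as measured ALDOC and DDIT4 fell, LDHA rose, and PGK1 and BNIP3 had no call. SLC16A3 and BSG, with the largest falls of all beside ALDOA, had no core in this window. A match here is a description of letters and not a measured binding site.

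Glucose enters through facilitative transporters, of which SLC2A1 (GLUT1) is the common form and SLC2A3 (GLUT3) a high-affinity one. SLC2A1 (Entrez 6513; GRCh38 chr1:42925375-42959176, minus strand) stood at 80.1, 84.4, 52.6 and 57.7 FPKM. It fell by 0.57 on the log2 scale (SE 0.063, adjusted p = 0.0029), and by 0.15 after GC correction (adjusted p = 0.037). The corrected SLC2A1 call was lost without shSCR replicate 1 (adjusted p = 0.12), shSCR replicate 2 (adjusted p = 0.17) or shJARID2 replicate 1 (adjusted p = 0.11). SLC2A3 went the other way, at 9.70, 9.78, 11.8 and 11.9 FPKM, with a log2 fold change of 0.26 (SE 0.051, adjusted p = 0.012). That call did not hold after GC correction (0.10, adjusted p = 0.13), nor without shSCR replicate 1 (adjusted p = 0.074) or shSCR replicate 2 (adjusted p = 0.072). The groups did not overlap for either gene. SLC2A3 made up 10.6% ± 0.289 of the 2 transporters' summed FPKM in shSCR and 17.8% ± 0.877 in shJARID2.

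The 15 enzyme genes that carry glucose to pyruvate were lower as a group. As measured 13 of the 15 were called lower and none higher (limma, median log2 fold change -0.85), against 31.6% and 28.0% of all tested genes, with PFKM and PGK1 as the exceptions. After GC correction 11 were called lower and none higher (median -0.48), against 21.3% and 22.6% of all genes by limma. Their summed level, without GC correction, was 1166 and 1227 FPKM in the shSCR libraries and 607 and 636 in the shJARID2 libraries. The means were 1197 ± 42.7 and 622 ± 20.9, a ratio of 0.520. No corrected sum was computed. GAPDH, PGAM1, ENO1 and TPI1 were the most abundant of the 15 in every library, and each of these was called lower in both forms.

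Hexokinase traps glucose in the cell as glucose 6-phosphate. HK1, the broadly expressed form, stood at 34.9, 35.8, 22.04 and 23.6 FPKM, and HK2, the form often raised in tumours, at 22.2, 21.8, 11.9 and 12.2. Both groups were well separated. HK1 fell by 0.61 on the log2 scale (SE 0.053, adjusted p = 0.0018) and by 0.50 after GC correction, and HK2 by 0.82 (SE 0.047, adjusted p = 0.0014) and 0.71. The change in HK1 and HK2 thus moved little with the correction, and HK1 made up 61.7% ± 0.733 of the pair in shSCR and 65.4% ± 0.789 in shJARID2.

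GPI, which turns glucose 6-phosphate into fructose 6-phosphate, stood at 46.8, 46.3, 31.1 and 32.5 FPKM. It fell by 0.53 on the log2 scale (SE 0.045, adjusted p = 0.0018) as measured, and the change was 0.003 after GC correction (adjusted p = 0.96), so the call rests on the uncorrected values. Its transcripts have 58.8% GC.

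Phosphofructokinase commits the sugar to glycolysis, and its 3 subunit genes differed. The platelet form PFKP was the most abundant at 50.03, 50.9, 32.8 and 33.5 FPKM. It fell by 0.59 as measured (adjusted p = 0.0014), but with -0.09 it had no call after GC correction (adjusted p = 0.10). The liver form PFKL fell from 10.8 and 12.1 to 4.05 and 4.99 FPKM, a log2 fold change of -1.18 (SE 0.11, adjusted p = 0.0022) and -0.41 after correction (adjusted p = 0.016). The corrected PFKL call was lost without shSCR replicate 1 (adjusted p = 0.065) or 2 (adjusted p = 0.10). For the muscle form PFKM the 4 values lay close, at 11.2, 11.2, 10.8 and 10.4 FPKM (-0.08, adjusted p = 0.25; 0.04 corrected). PFKL made up 15.7% ± 0.879 of the summed subunits in shSCR and 9.35% ± 1.20 in shJARID2, PFKM 15.3% ± 0.311 and 21.9% ± 0.929, and PFKP 69.0% ± 0.568 and 68.7% ± 0.273. Fructose 2,6-bisphosphate, the activator of this step, is made by PFKFB3 and PFKFB4. PFKFB3 stood at 11.6, 12.8, 8.46 and 8.25 FPKM and PFKFB4 at 12.9, 12.5, 7.99 and 8.22. Both were called lower as measured (-0.49 and -0.59, adjusted p = 0.0054 and 0.0020) and neither after GC correction (0.12 and -0.17, adjusted p = 0.21 and 0.062).

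**Figure D3:**
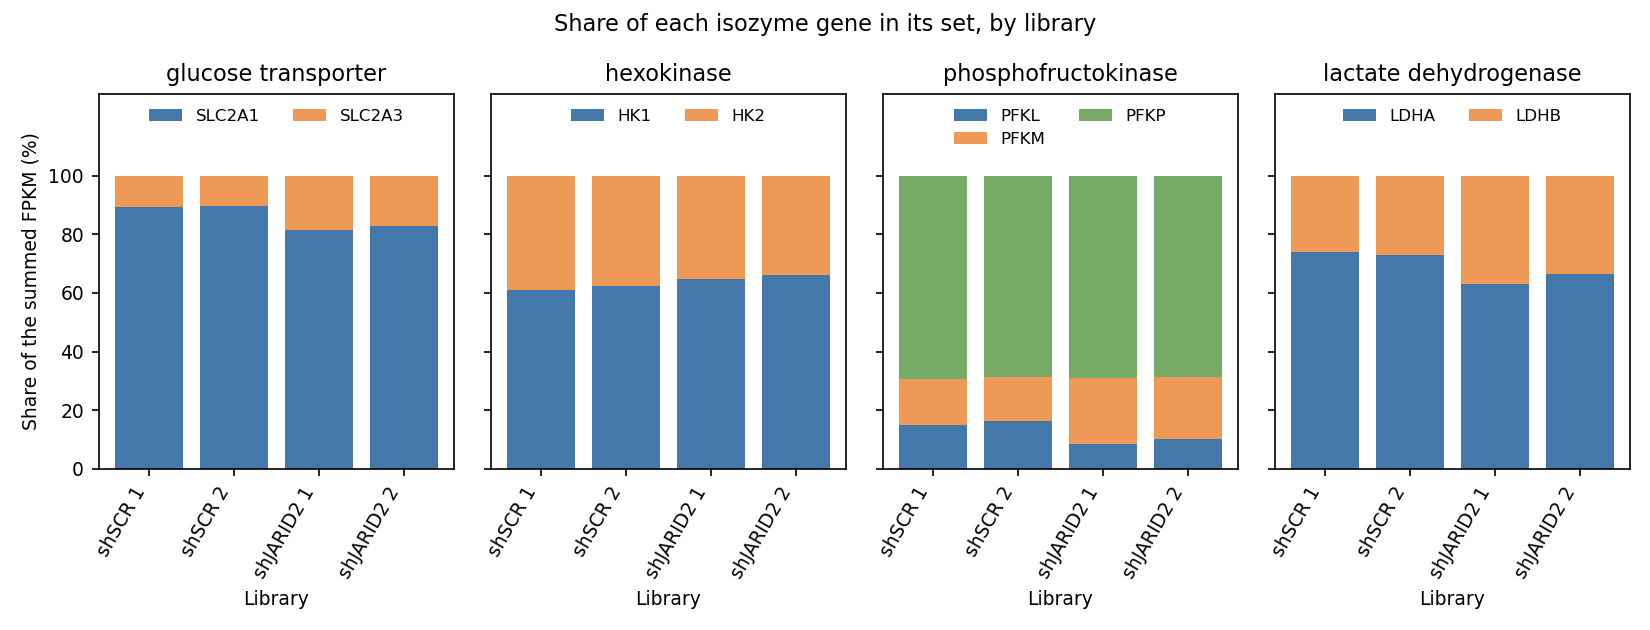
Share of each isozyme gene in the summed FPKM of its set (%), 1 bar per library, for glucose transporters, hexokinase, phosphofructokinase and lactate dehydrogenase. The shares of SLC2A3, PFKM and LDHB are larger in both shJARID2 libraries than in both shSCR libraries, while that of PFKP stays near 69%. All shares come from FPKM without GC correction. Transcript GC content is 46.1% for SLC2A3 and 56.6% for SLC2A1. It is 51.3% for PFKM, 58.0% for PFKP and 63.6% for PFKL, and 44.0% for LDHB and 45.4% for LDHA. The part of GC content in these shares was not tested.

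Aldolase cuts fructose 1,6-bisphosphate into 2 trioses. ALDOA (Entrez 226; chr16:30064164-30070457, plus strand) stood at 8.63, 9.75, 1.85 and 2.43 FPKM, a log2 fold change of -1.70 (SE 0.13, adjusted p = 0.0015) and -1.06 after GC correction (adjusted p = 0.0030). Its level is uncertain, because 53.5% of its exon bases are shared with the overlapping loci AC093512.1 and AC093512.2 and the counting of shared reads is not given in the sources used here. The additional row with the symbol ALDOA gave 5.40, 6.03, 1.86 and 2.87 FPKM, with a log2 fold change of -1.01 (adjusted p = 0.0089) that missed the threshold without shSCR replicate 2 (adjusted p = 0.054) and without the filter on low values (adjusted p = 0.053). ALDOC, the brain form, was low at 2.03, 2.68, 0.870 and 0.960 FPKM. It was called lower (-0.80, SE 0.15, adjusted p = 0.011), but neither after GC correction (-0.44, adjusted p = 0.053) nor without shSCR replicate 2 (-0.66, adjusted p = 0.060). TPI1, which interconverts the trioses, was far more abundant at 114, 114, 48.2 and 50.8 FPKM and fell by 1.19 (SE 0.045, adjusted p = 0.0014), or 0.81 after correction (adjusted p = 0.0018).

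The pay-off steps begin with GAPDH, which oxidises glyceraldehyde 3-phosphate and was the most abundant of the 40 genes in shSCR. It stood at 411, 454, 207 and 212 FPKM, a log2 fold change of -1.04 (SE 0.064, adjusted p = 0.0014) and -0.60 after GC correction (adjusted p = 0.0027). GAPDH is often used as a reference gene; in these libraries its level in shJARID2 was 0.485 of that in shSCR. Reads of GAPDH may be split with copies elsewhere, since the annotation lists 62 pseudogenes of it.

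PGK1, which makes the first ATP of the pathway, stood apart from its neighbours. Its values of 20.4, 19.1, 20.3 and 18.5 FPKM overlapped between the groups, and it was the 1 gene of the 35 for which they did. As measured it changed by -0.03 (SE 0.068, adjusted p = 0.76), and its transcripts have only 43.3% GC. After GC correction it was called lower, at -0.28 (adjusted p = 0.014), but not without shSCR replicate 1 (adjusted p = 0.081) or 2 (adjusted p = 0.064). The direction as measured turned to 0.02 without shSCR replicate 1 and to 0.04 without shJARID2 replicate 2.

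The last 3 steps were lower throughout. PGAM1, the mutase, stood at 195, 200, 99.7 and 105 FPKM and fell by 0.94 (SE 0.048, adjusted p = 0.0014), or 0.68 after correction; 13 pseudogenes of it are annotated. ENO1, the main enolase (chr1:8861000-8879250, minus strand), stood at 163, 170, 76.1 and 84.4 FPKM. Its log2 fold change was -1.05 (SE 0.066, adjusted p = 0.0014) and -0.87 after correction (adjusted p = 0.0019), so that it moved little with GC content. ENO2, the neuronal enolase, fell from 15.8 and 17.2 to 8.73 and 8.57 FPKM (-0.85, adjusted p = 0.0015; -0.48 corrected, adjusted p = 0.0055). ENO1 made up 91.0% ± 0.234 of the enolase level in shSCR and 90.2% ± 0.759 in shJARID2. PKM, the pyruvate kinase of most tissues and tumours, stood at 60.7, 61.9, 31.6 and 35.8 FPKM, with -0.85 (SE 0.070, adjusted p = 0.0017) and -0.43 after correction (adjusted p = 0.0044). The table does not separate its M1 and M2 splice forms. After GC correction all 6 pay-off genes were called lower (21.3% of all genes), PGK1 among them with the limits given above.

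**Figure D4:**
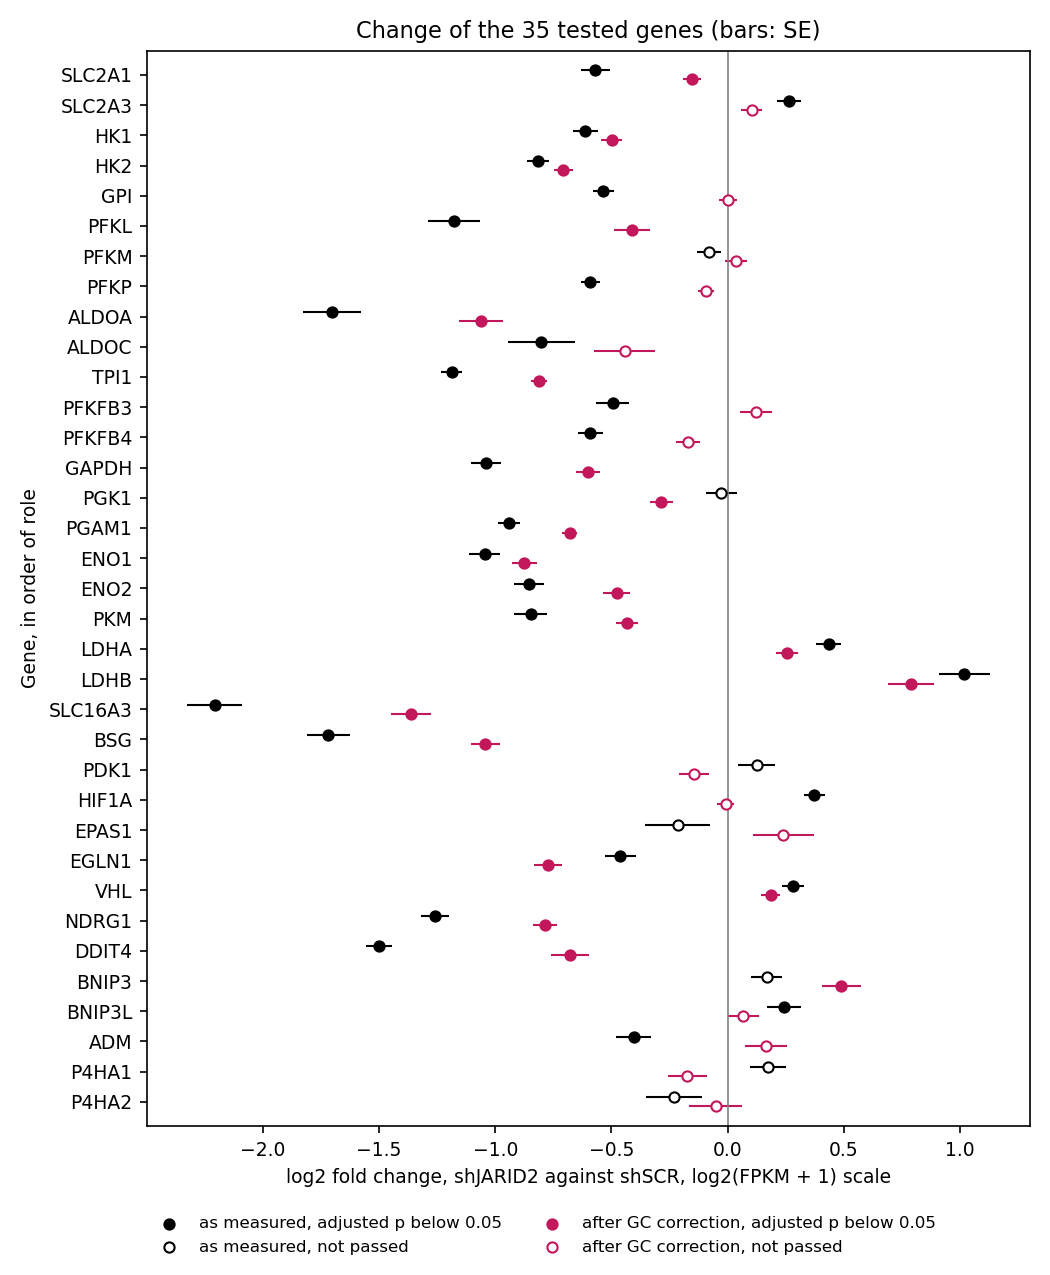
Log2 fold change of shJARID2 against shSCR with its SE for the 35 tested genes, as measured (black) and after GC correction (red); filled points have an adjusted p below 0.05. SLC16A3 (-2.21), BSG (-1.72) and ALDOA (-1.70) lie farthest to the left, and LDHB (1.02) farthest to the right, in both forms.

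Lactate dehydrogenase went against most, but not all, of the glycolytic enzymes. LDHA (Entrez 3939; chr11:18394388-18408425, plus strand), the form that favours lactate, stood at 230, 222, 316 and 296 FPKM. It rose by 0.44 on the log2 scale (SE 0.054, adjusted p = 0.0037) and 0.26 after GC correction (adjusted p = 0.015), a corrected call that was lost without shSCR replicate 1 (adjusted p = 0.067) or 2 (adjusted p = 0.099). LDHB (Entrez 3945; chr12:21635342-21757857, minus strand), the form of heart muscle, stood at 81.5, 82.3, 186 and 150 FPKM and rose by 1.02 (SE 0.11, adjusted p = 0.0028), or 0.79 corrected (adjusted p = 0.0057). Its shJARID2 libraries differed from each other by more than its shSCR libraries did, but both lay above both controls. LDHB shares 33.4% of its exon bases with the same-strand locus AC010197.2, and 6 pseudogenes of LDHA are annotated. The summed LDHA and LDHB level was 308 ± 5.47 FPKM in shSCR and 474 ± 39.3 in shJARID2, and LDHB made up 26.6% ± 0.661 and 35.3% ± 2.38 of it. LDHB kept its corrected call with any 1 library left out.

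The main lactate exporter and its chaperone moved the opposite way to lactate dehydrogenase. SLC16A3 (MCT4; Entrez 9123; chr17:82228397-82261129, plus strand), the exporter of highly glycolytic cells, stood at 16.7, 17.3, 2.51 and 3.33 FPKM. This was the largest fall of the 35, a log2 fold change of -2.21 (SE 0.12, adjusted p = 0.0014) and a ratio of means of 0.172. At 65.6% its transcripts also had the highest GC content of the tested genes here, and after correction it fell by 1.36 (adjusted p = 0.0021), still the largest. BSG (basigin, CD147; chr19:571277-583493, plus strand), the chaperone that carries MCT1 and MCT4 to the membrane, stood at 76.5, 88.4, 23.1 and 25.5 FPKM. It fell by 1.72 (SE 0.093, adjusted p = 0.0014), or 1.04 corrected (adjusted p = 0.0019). SLC16A1 (MCT1) was near the limit of detection at 0.328, 0.395, 0.465 and 0.470 FPKM, about 27, 34, 32 and 32 reads, and was not tested. The summed SLC16A1 and SLC16A3 level was 17.4 ± 0.413 FPKM in shSCR and 3.39 ± 0.589 in shJARID2. With SLC16A7 (MCT2), a relative outside the 40 genes that was higher in shJARID2, the sum was 23.4 ± 0.0556 FPKM in shSCR and 16.4 ± 0.206 in shJARID2. PDK1, which blocks the use of pyruvate in the mitochondria by phosphorylating pyruvate dehydrogenase, stood at 5.68, 5.14, 6.17 and 5.81 FPKM. It had no call as measured (0.13, adjusted p = 0.23) or after correction (-0.14, adjusted p = 0.14).

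Among the oxygen sensors, HIF1A, the alpha subunit whose protein is chiefly set by its breakdown, was abundant at 97.7, 97.2, 130 and 123 FPKM. It was called higher as measured (0.37, SE 0.046, adjusted p = 0.0036) and had no call after GC correction (-0.0077, adjusted p = 0.88); its transcripts have 39.2% GC, the lowest of the 35. EPAS1, which encodes HIF-2 alpha, was low at 1.56, 1.33, 0.962 and 1.25 FPKM and had no call (-0.21, adjusted p = 0.25; 0.24 corrected). EGLN1 (PHD2), the main prolyl hydroxylase that marks HIF for breakdown, stood at 7.01, 7.01, 4.95 and 4.68 FPKM. It fell by 0.46 (SE 0.066, adjusted p = 0.0055) and by 0.77 after correction (adjusted p = 0.0025), since its GC content of 41.4% is low for a gene that fell. EGLN3 (PHD3), a HIF target itself, was at 0.535, 0.470, 0.409 and 0.425 FPKM and was not tested. VHL, the recognition subunit of the ligase, was called higher at 16.8, 16.1, 20.1 and 20.3 FPKM (0.28, SE 0.048, adjusted p = 0.0090; 0.19 corrected, adjusted p = 0.026). Without shSCR replicate 2 the VHL call was lost (0.25, adjusted p = 0.063), and the corrected call was lost without any 1 of the 4 libraries (adjusted p = 0.065 to 0.15).

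Among HIF targets outside glycolysis, calls were about as frequent as among all genes. Of the 10, 7 were tested: 3 were called lower (42.9%, against 31.6% of all tested genes), 1 higher (14.3%, against 28.0%) and 3 had no call (median -0.23). After GC correction 2 were lower (28.6%, against 21.3%) and 1 higher (14.3%, against 22.6%). DDIT4 (REDD1), which restrains mTORC1 under stress, fell the most as measured, from 24.8 and 24.2 to 8.29 and 7.74 FPKM (-1.50, SE 0.057, adjusted p = 0.0014). After GC correction it fell by 0.68 (adjusted p = 0.0053), less than NDRG1. DDIT4 shares 41.2% of its exon bases with DDIT4-AS1, and strand use in the counting is not given in the sources used here. NDRG1, a stress-responsive gene linked to metastasis suppression, stood at 14.0, 14.8, 5.38 and 5.49 FPKM and fell by 1.26 (SE 0.060, adjusted p = 0.0014), or 0.79 corrected (adjusted p = 0.0021). ADM, the peptide hormone adrenomedullin, was called lower as measured at 21.8, 23.5, 17.8 and 16.0 FPKM (-0.40, adjusted p = 0.011). The ADM call was lost without shSCR replicate 2 (-0.35, adjusted p = 0.064) and after GC correction, where the value was 0.17 (adjusted p = 0.20). In the corrected fit without shJARID2 replicate 2, ADM was called higher (0.29, adjusted p = 0.029).

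The mitophagy receptors BNIP3 and BNIP3L lay slightly higher in shJARID2. BNIP3 stood at 32.9, 32.3, 39.0 and 34.7 FPKM, with no call as measured (0.17, adjusted p = 0.094). It was called higher after GC correction (0.49, adjusted p = 0.012) and, uncorrected, without shJARID2 replicate 2 (0.25, adjusted p = 0.025). The corrected BNIP3 call was lost without shSCR replicate 1 (adjusted p = 0.054) or 2 (adjusted p = 0.074), and 39 pseudogenes of it are annotated. BNIP3L stood at 16.1, 15.4, 19.9 and 17.7 FPKM and only just passed (0.24, adjusted p = 0.043). Its call was lost after GC correction (0.07, adjusted p = 0.45) and without shSCR replicate 1 (0.27, adjusted p = 0.11), shSCR replicate 2 (0.22, adjusted p = 0.17) or shJARID2 replicate 1 (0.16, adjusted p = 0.11). With no filter on low values it was lost too (adjusted p = 0.12). The collagen prolyl hydroxylase subunits had no call: P4HA1 stood at 7.95, 9.01, 9.86 and 9.49 FPKM (0.17, adjusted p = 0.12; -0.17 corrected, adjusted p = 0.16) and P4HA2 at 1.30, 1.44, 1.02 and 1.02 (-0.23, adjusted p = 0.17; -0.05 corrected, adjusted p = 0.75).

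CA9, CA12 and ANKRD37 were low in both groups. The carbonic anhydrase CA9, a widely used marker of hypoxic tumour cells, stood at 0.657, 0.592, 0.185 and 0.0468 FPKM, which corresponds to about 17, 16, 4 and 1 reads. CA9 was left out by the filter, and with no filter it was called lower by limma (-0.54, adjusted p = 0.037). It shares 38.5% of its exon bases with ARHGEF39. CA12, a related carbonic anhydrase, stood at 1.08, 1.09, 0.771 and 0.854 FPKM, and ANKRD37 at 0.40, 0.359, 0.688 and 0.817, neither tested. With no filter limma called neither CA12 (-0.20, adjusted p = 0.20) nor ANKRD37 (0.34, adjusted p = 0.061). SLC16A1 (0.11, adjusted p = 0.26) and EGLN3 (-0.084, adjusted p = 0.38) had no call there either.

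Lists of related genes, chosen like the 40 with earlier results of these data known, place them in their wider pathways. Of 80 genes listed 75 were found and 59 tested, of which 17 were called higher and 21 lower (11 and 22 after GC correction), with a median log2 fold change of 0.03. As measured these shares, 28.8% higher and 35.6% lower, were near the 28.0% and 31.6% of all tested genes, against which the counts of the single lists are also to be read. After correction they were 18.6% and 37.3%, beside 22.6% and 21.3%. In the pentose phosphate pathway, which draws glucose 6-phosphate away to make NADPH and ribose, 5 of 8 were called lower and 1 higher. After GC correction 3 were called lower and 2 higher. PGD fell by 0.91, TKT by 0.79 and TALDO1 by 0.57 (0.65, 0.25 and 0.16 corrected), and RPIA was higher (0.34), a call lost without shSCR replicate 1 (adjusted p = 0.11), shSCR replicate 2 (adjusted p = 0.052) or shJARID2 replicate 1 (adjusted p = 0.075). Among 6 tested genes of the other glycolysis list 2 were called higher and 1 lower (2 and 2 after GC correction). One of these was SLC16A7 (MCT2), a further monocarboxylate transporter, which rose from 6.25 and 5.74 to 13.6 and 12.5 FPKM (1.0, adjusted p = 0.0015; 0.73 corrected). ADPGK, an ADP-dependent glucokinase, was also higher (0.37, adjusted p = 0.015), but not without shSCR replicate 2 (0.069) or shJARID2 replicate 1 (0.059). Of 12 tested genes for the entry of pyruvate into mitochondria or for pyruvate dehydrogenase and its control, 3 were called higher and 3 lower. After GC correction 1 was called higher and 4 lower. PDP1, the phosphatase that reactivates pyruvate dehydrogenase, rose from 15.9 and 15.0 to 27.5 and 26.4 FPKM (0.77, adjusted p = 0.0015; 0.60 corrected).

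The pyruvate dehydrogenase subunit PDHB was called lower (-0.67, adjusted p = 0.019; -0.87 corrected), but not without shSCR replicate 1 (adjusted p = 0.083) or shJARID2 replicate 1 (adjusted p = 0.066). PDHA1 barely passed (-0.36, adjusted p = 0.047, and -0.48 corrected) and was called lower in only 8 of 16 settings. It lost its call without shSCR replicate 1, shSCR replicate 2 or shJARID2 replicate 2. With 1 library left out its change ranged from -0.48 to -0.24. Of 7 tested glycogen genes 2 were called higher and 3 lower, and 0 and 2 after GC correction. Over all tested genes 28.0% were called higher and 31.6% lower, and 22.6% and 21.3% after correction. PGM1, which links glycogen to glycolysis, fell by 0.51 (adjusted p = 0.0083), a call lost without shSCR replicate 2. In the oxygen-sensing machinery 4 of 8 were called lower and 2 higher (4 and 1 after GC correction). The HIF partner ARNT (-0.28) and the coactivators CREBBP (-0.45) and EP300 (-0.33) were called lower in both forms. The ARNT call was lost without either shSCR replicate (adjusted p = 0.068 and 0.057), and the EP300 call without shSCR replicate 1 (adjusted p = 0.063). CUL2, the scaffold of the VHL ligase, changed sign with the correction (0.15 and -0.26, both called), and as measured its call was lost without any 1 of the 4 libraries (adjusted p = 0.078 to 0.16).

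Other HIF targets also split, with 7 of 18 called higher (38.9%, against 28.0% of all tested genes) and 5 lower (27.8%, against 31.6%). After correction 5 were called higher (27.8%, against 22.6%) and 7 lower (38.9%, against 21.3%). VEGFA, the angiogenic growth factor, fell from 2.57 and 2.47 to 0.728 and 0.747 FPKM (-1.02, adjusted p = 0.0028; -0.56 corrected), and the repressor BHLHE40 fell by 0.89 (0.73 corrected). ERO1A, an oxidase of the endoplasmic reticulum, rose from 15.9 and 14.7 to 38.2 and 37.8 FPKM (1.26, adjusted p = 0.0014; 0.88 corrected), and TFRC, the transferrin receptor, from 42.6 and 40.8 to 81.5 and 76.3 (0.90; 0.59 corrected).

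**Figure D5:**
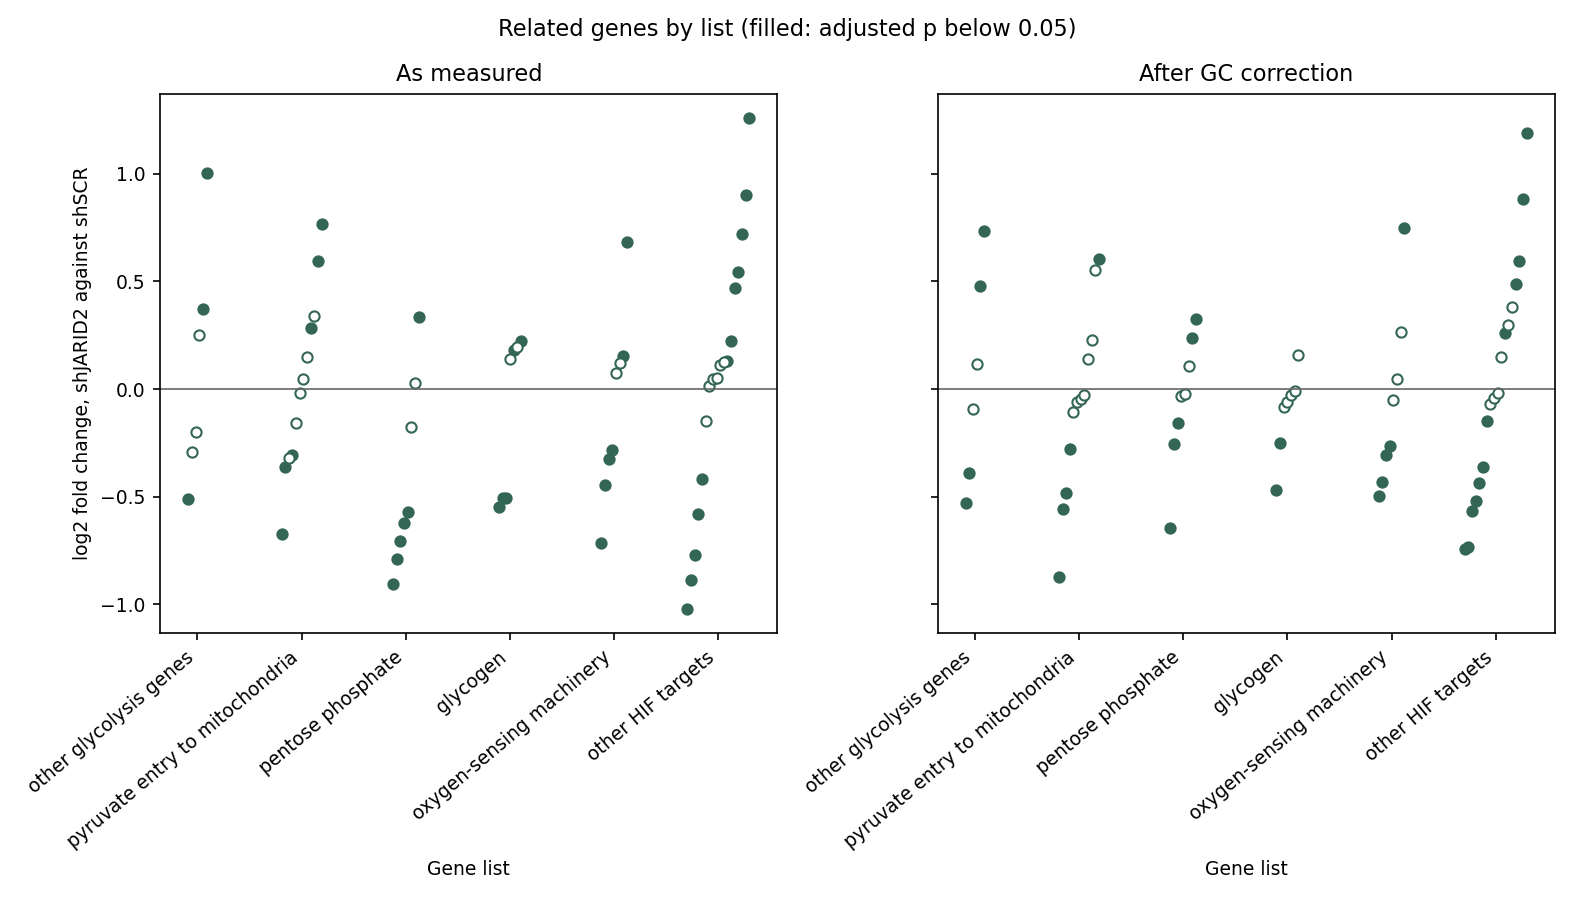
Log2 fold change of shJARID2 against shSCR for the tested genes of 6 related lists, as measured on the left and after GC correction on the right; filled points have an adjusted p below 0.05. Of the 8 pentose phosphate genes 5 are filled below 0 as measured and 3 after correction, while the other HIF targets spread to both sides of 0.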

How the data were processed

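RNA from MDA-MB-231 cells was sequenced in 4 libraries, and the authors deposited 1 table of FPKM per library, per the file headers. Trimmomatic, HISAT2, SAMtools and featureCounts are named in the submitters' processing notes, without versions; not given in the sources used here are genome build, annotation, strand setting and the handling of reads with several matches. Groups were read from the titles. Of 85553 rows per table, 60420 had no symbol (21.1% to 24.5% of summed FPKM) and were left out. limma 3.58.1 in R 4.3.3 was fitted with its mean-variance trend to log2(FPKM + 1) of the 12455 named rows with a mean of at least 1 FPKM, with group as the only term, and checked on simulated data.

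GC content, exon lengths and coordinates came from GENCODE release 29 (GRCh38), which matched 24328 named rows and 97.1% of tested genes. The GC correction subtracted, in each library, a loess curve (span 0.3, degree 2) of the deviations from gene means. Reads were recovered from FPKM steps and exon lengths: 95.8% to 96.3% of values up to 20 reads lay within 0.05 of a whole number, which gave 12800000 to 16200000 reads per library. Promoter sequences came from RefSeq.

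The 40 genes and the related lists were chosen with earlier results of these data known. All 40 are accounted for; of each related list, up to 4 called genes with the largest changes that were also called after GC correction are named. Alternatives covered the filter, pseudocount, scaling, GC correction, replicate block, limma-voom on recovered reads and each library left out; leaving libraries out of the GC-corrected fit was added after seeing the data.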

Additional observations from a re-analysis of the deposited data

How the results depend on the processing

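The 35 tested genes gave 525 values under 15 alternatives, of which 478 kept their direction and their side of the threshold. Of the others, 20 lost and 8 gained a call, and 19 changed sign. The reported fit and all of these 15 alternatives called the same 16 genes lower and the same 2 higher. The share of all genes with such a constant call is not given here. With the GC correction all genes called lower went from 3941 to 2579, and to 2322 with the replicate block added. It turned GPI to 0.00296, PFKM to 0.0365, PFKFB3 to 0.12, PDK1 to -0.14, HIF1A to -0.0077, EPAS1 to 0.24, ADM to 0.17, P4HA1 to -0.17 and CUL2 to -0.26, with the same values when the block was added. In the related lists 19 genes turned sign, of which CUL2 and PLOD2 (0.13 to -0.36) were called in both directions. PGK1 turned to 0.0293 under upper-quartile scaling and ranged from -0.0910 to 0.0382 with 1 library left out. With no filter on low values BNIP3L, ADM, ADPGK, PDHB, PDHA1 and RPIA lost their calls (adjusted p = 0.12, 0.052, 0.055, 0.082, 0.12 and 0.092). Leaving out each library gave 2213 to 3076 genes higher and 2475 to 3844 lower over all genes, and 3 to 7 and 20 to 22 among the 40; the 3 came without shSCR replicate 2. With the GC correction these counts were 1540, 1304, 2008 and 2297 higher and 1227, 1060, 1946 and 2219 lower over all genes (without shSCR replicate 1, shSCR replicate 2, shJARID2 replicate 1 and shJARID2 replicate 2), and 1 to 4 and 14 to 17 among the 40, with 1 and 14 without either shSCR replicate. A lone library was then assumed to vary like the other group. The cause of these shifts was not tested. The replicate numbers share only a number: same-numbered libraries deviated together with r = 0.03, and a fit with the replicate number as a block gave 3380 genes higher and 3831 lower, and 6 and 22 among the 40; PDHA1 lost its call under it (adjusted p = 0.055). With limma-voom on recovered reads 8 of the 35 tested were higher and 23 lower, adding PDK1 and BNIP3 as higher and P4HA2 as lower. Over all 12099 genes of that fit 3955 were called higher and 4134 lower. JARID2 was called lower throughout (-1.45 to -0.83). Depth limits CA9, SLC16A1, EGLN3 and ANKRD37, which rest on few reads.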
